A study of Arabidopsis thaliana with 8 samples.

Results

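The genes described here are 7 enzymes that handle peroxide and thiol redox state, most of them in the plastid, of 2286 genes that the array annotation named. They were chosen by name from that annotation, joined by probe number, as AT3G52960, a peroxiredoxin, AT2G04700, the ferredoxin-thioredoxin reductase, NTRC (AT2G41680), TAPX (AT1G77490), SAPX (AT4G08390), GR (AT3G54660) and GR1 (AT3G24170). They were represented by 6 of the 3439 probes. AT3G52960, AT2G04700 and NTRC had a probe each of their own, TAPX and SAPX shared 2 probes, and GR and GR1 shared 1, so the signal of 3 probes cannot be divided between the genes they name. Each value came from an array hybridised with total RNA of wild-type Arabidopsis thaliana, ecotype Columbia 0, from leaves (4 arrays) or from roots (4 arrays). The labels state the purpose as a contrast of root with leaf and give no plant age, growth condition or further treatment. Nothing in them says that the arrays of a tissue came from separate plants, so the p-values measure the spread between arrays, which may be technical.

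In a chloroplast in the light, electrons that leave the photosynthetic chain can reduce oxygen, and the hydrogen peroxide that forms is removed by peroxiredoxins and by ascorbate peroxidases. Ascorbate is regenerated partly at the expense of glutathione, which glutathione reductase returns to its reduced form with NADPH. Thioredoxins switch plastid enzymes on and off by reducing disulfide bonds. They receive their electrons in the light from ferredoxin through the ferredoxin-thioredoxin reductase, while NTRC, a protein with a reductase and a thioredoxin domain, draws on NADPH and can work in the dark and in root plastids, which have no photosynthetic chain.

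Intensities were on a relative linear scale with a ceiling of 100, and the 6 probes were below 1 on every array. The median probe of an array read 0.150 to 0.176 in leaf and 0.258 to 0.317 in root, and 21.4% ± 1.59 of the leaf values against 13.9% ± 1.23 of the root values were exactly 0 (SD, n = 4 arrays). The summed intensities of the arrays overlapped between the tissues, at 3021 to 3426 in leaf and 2868 to 3505 in root. Because of the medians and values of 0, levels were compared after quantile normalisation between arrays, with a floor of 0.00582 and on the log2 scale. Results with other scalings are given beside it. Root replicates 1 and 2 correlated with each other, as did 3 and 4 (r = 0.924 and 0.968 across probes), more closely than arrays of different pairs did (0.885 to 0.890). Leaf arrays correlated less closely than root arrays, at 0.758 to 0.798 within the same pairs and 0.751 to 0.764 between them. The leaf medians also split by pair, at 0.150 and 0.153 in replicates 1 and 2 and 0.170 and 0.176 in replicates 3 and 4. The labels do not explain the pairs. As a check of the tissue labels, 4 of 5 probes for photosystem and antenna genes were higher in leaf (LHB1B2 read 22.5 ± 2.53 in leaf and 0.481 ± 0.174 in root), while PSBW, a photosystem II subunit gene, went the opposite way, at 25.1 ± 1.24 in leaf and 70.8 ± 8.33 in root (1.72 ± 0.26 on the log2 scale; limma, adjusted p = 0.00137). None of the 14 root marker genes looked for had a probe, so the root label was not checked from its own markers. Gene names rest on the annotation joined by probe number. Whether each probe, PSBW and the members included, reports the gene it names was not tested. In such whole-tissue RNA, fewer cells of a type and less RNA per cell cannot be told apart.

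Of the 6 probes, 2 were higher in root and 0 were higher in leaf. The probes that rose were that of the peroxiredoxin AT3G52960 and one of those shared by the ascorbate peroxidases TAPX and SAPX. The other TAPX/SAPX probe, AT2G04700, NTRC and the probe of GR and GR1 did not pass the test, with log2 differences, root minus leaf, of -1.66, -2.42, 0.40 and 0.39. Over all 3298 probes tested, the call was higher in root for 20.1% and higher in leaf for 22.1% (limma, Benjamini-Hochberg adjusted p below 0.05), so 2 of 6 is not read as a property of the group. At an unadjusted p below 0.05, 1 member was higher in leaf (AT2G04700), and a separate-variance test of each probe found 0 by either p. The median log2 difference, root minus leaf, of the 6 probes was 0.39 and that of all probes 0.05.

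**Figure D1:**
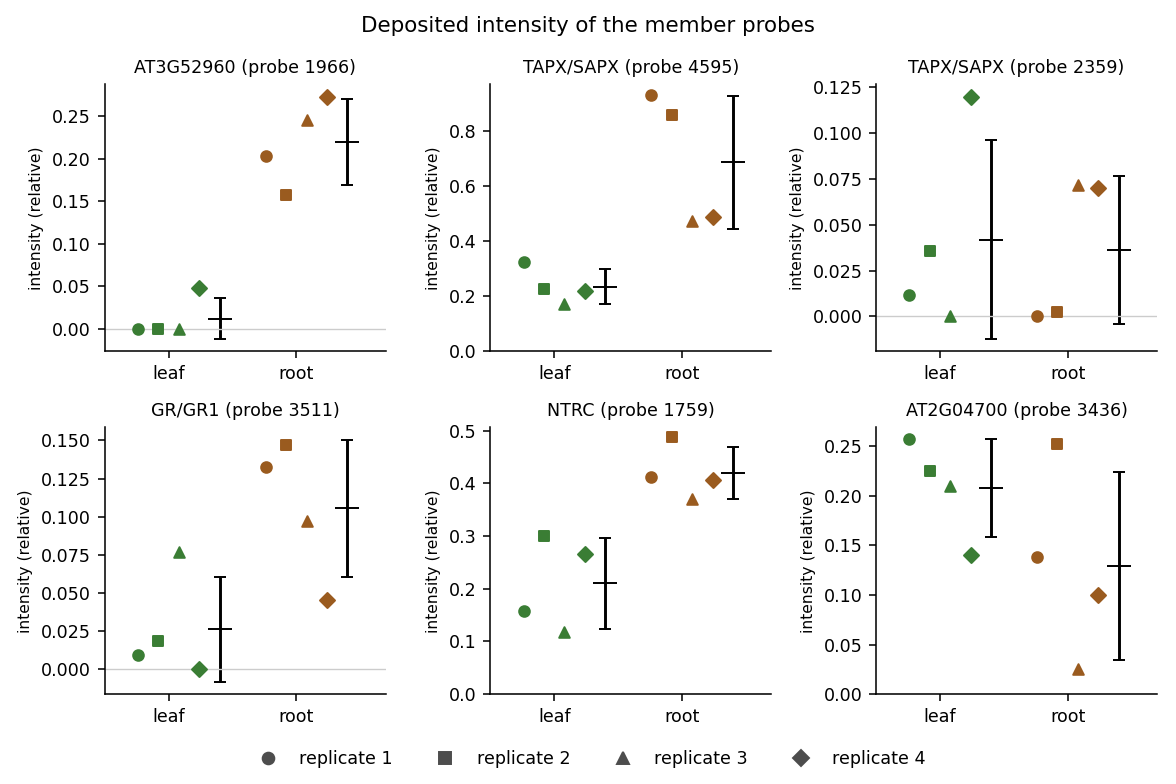
Deposited intensity (relative, linear axis) of the 6 probes on each leaf and root array, with a marker for each replicate number and the mean ± SD beside the points. The tissues are apart for AT3G52960, NTRC and TAPX/SAPX probe 4595, and they overlap for the other probes.

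AT3G52960, a plastid peroxiredoxin that reduces peroxides with electrons from small thiol proteins, was listed at 0 on leaf replicates 1, 2 and 3 and read 0.0477 on leaf replicate 4. In root replicates 1 to 4 it read 0.203, 0.158, 0.245 and 0.273. Every root array thus lay above the leaf array that gave a signal. The log2 difference was 3.84 ± 0.90 (SE, 95% interval 1.74 to 5.95; limma, adjusted p = 0.0111), and it exceeded the spread between arrays. Its size is set largely by the floor that stands in for the values of 0, since it was 2.03 with a floor at the 5th percentile of the positive values and 1.60 with an offset added instead (limma, adjusted p = 0.00453 and 0.00411). In a test with separate variances for the tissues it did not pass (adjusted p = 0.0640 over all probes).

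TAPX is the ascorbate peroxidase bound to the thylakoid membrane and SAPX its soluble counterpart in the stroma, also found in mitochondria. Probe 4595, which names both, read 0.326, 0.225, 0.171 and 0.218 in leaf replicates 1 to 4. In root it read 0.933, 0.858, 0.472 and 0.489. The lowest root array was above the highest leaf array, and root replicates 1 and 2 were well above 3 and 4. The tissue means were 0.235 ± 0.0649 and 0.688 ± 0.242 (SD, n = 4), and the log2 difference was 0.95 ± 0.27 (95% interval 0.31 to 1.58; limma, adjusted p = 0.0256). It was similar in both pairs of replicates, at 1.01 for replicates 1 and 2 and 0.88 for replicates 3 and 4. The call was lost with each array centred on its own median (0.69; limma, adjusted p = 0.102) and without leaf replicate 3 or 4 or root replicate 1 or 2 (limma, adjusted p = 0.0589 to 0.0646).

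The other probe for the same genes, 2359, gave no such pattern. In leaf replicates 1 to 4 it read 0.0117, 0.0357, 0 and 0.1199, and in root 0, 0.00257, 0.0719 and 0.0701. The tissues overlapped, and within root the replicates that were bright on probe 4595 were the ones near 0 here. The log2 difference of -1.66 ± 1.14 did not pass (95% interval -4.33 to 1.01; limma, adjusted p = 0.278), and it was -3.50 in replicates 1 and 2 but 0.18 in replicates 3 and 4. It passed without leaf replicate 3, at -2.62 (limma, adjusted p = 0.0442), and with values of 0 left out, at -2.21 (limma, adjusted p = 0.0336), while on the deposited intensities it was -0.19 (limma, adjusted p = 0.905). Which of TAPX and SAPX, or how much of each, either probe reports was not tested.

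**Figure D2:**
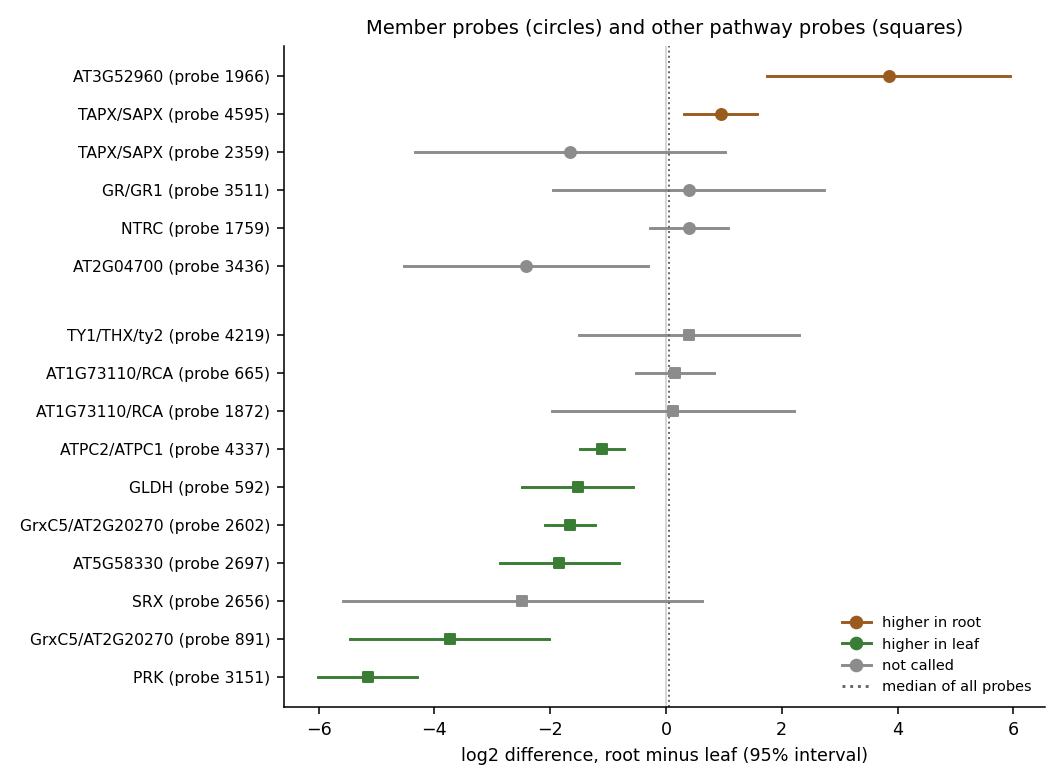
Log2 difference, root minus leaf, with its 95% interval for the 6 member probes (circles) and 10 other probes of the same pathways (squares), coloured by the limma call, and the median of all probes as a dotted line. AT3G52960 and TAPX/SAPX probe 4595 are the circles called higher in root, and the coloured squares are all on the leaf side.

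GR is the glutathione reductase of plastids and mitochondria and GR1 the enzyme of the cytosol and peroxisomes, so their shared probe mixes compartments. It read 0.00962, 0.0185, 0.0768 and 0 in leaf replicates 1 to 4 and 0.132, 0.147, 0.0973 and 0.0456 in root. Only root replicate 4 fell below a leaf array, namely leaf replicate 3. The mean deposited intensity was 4.03 times as high in root (0.106 ± 0.0450) as in leaf (0.0262 ± 0.0345; SD, n = 4). Leaf replicate 3 made up most of the leaf mean, and the ratio was 9.94 in replicates 1 and 2 and 1.86 in replicates 3 and 4. By place on the array the probe lay between the 24.4 and 34.95 percentile on the 3 leaf arrays above 0. In root it lay between the 16.9 and 30.2 percentile. These ranks are not directly comparable, since values of 0 filled the lowest ranks, on average 21.4% in leaf and 13.9% in root. Normalisation by rank raised the 3 leaf values above 0, for replicate 1 from 0.00962 to 0.0585. It lowered every root value, for replicate 4 from 0.0456 to 0.0188. After normalisation the log2 difference was 0.39 (95% interval -1.95 to 2.73; limma, adjusted p = 0.77). On the deposited intensities it was 2.52 and passed (limma, adjusted p = 0.0354).

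NTRC read 0.157, 0.300, 0.118 and 0.267 in leaf replicates 1 to 4 and 0.413, 0.488, 0.371 and 0.406 in root. Every root array was above every leaf array before normalisation, and leaf replicates 1 and 3 were the lowest. The mean was 0.210 ± 0.0865 in leaf and 0.419 ± 0.0492 in root (SD, n = 4). In place on the array it stood at the 54.4 ± 10.1 percentile in leaf and the 61.9 ± 2.44 percentile in root, with overlap. These ranks carry the same limit as those of GR/GR1. The normalised log2 difference was 0.40 ± 0.29 (95% interval -0.27 to 1.06; limma, adjusted p = 0.298), which did not pass and does not show equal levels. As deposited the difference was 1.09 (limma, adjusted p = 0.0279).

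AT2G04700 encodes the catalytic subunit of the ferredoxin-thioredoxin reductase, an enzyme with an iron-sulphur cluster that passes electrons from ferredoxin to thioredoxins. It read 0.257, 0.225, 0.209 and 0.140 in leaf replicates 1 to 4. In root it read 0.139, 0.253, 0.0252 and 0.0999. Root replicate 2 was within the leaf range and root replicate 3 far below it, so the deposited intensities overlapped, although the normalised values did not. By place on the array the probe went from the 55.2 ± 7.17 percentile in leaf to the 27.9 ± 11.6 percentile in root. As for GR/GR1, these ranks are not directly comparable, since more leaf values were 0. The mean deposited intensity was 0.208 ± 0.0493 in leaf and 0.129 ± 0.0949 in root (SD, n = 4). After normalisation root replicate 3 was at 0.00742, near the floor of 0.00582. The log2 difference of -2.42 ± 0.90 did not pass (95% interval -4.53 to -0.30; limma, adjusted p = 0.0663). It passed without root replicate 2, at -2.98, or without root replicate 3, at -1.55 (limma, adjusted p = 0.0259 and 0.0331), with median centring, at -1.90 (limma, adjusted p = 0.0400), and with a block for replicates 1 and 2 against 3 and 4 (limma, adjusted p = 0.0426). On the deposited intensities it was -1.07 and did not pass (limma, adjusted p = 0.217). With a floor at the 5th percentile it was -1.90, and with an offset instead -1.37 (limma, adjusted p = 0.0160 and 0.0132). It did not pass with a block for each replicate number (limma, adjusted p = 0.0821) or in a separate-variance test (adjusted p = 0.173). The sign was the same under the 20 alternatives run. The difference passed under only 7 of them, and under 2 of the 8 that left out 1 array.

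**Figure D3:**
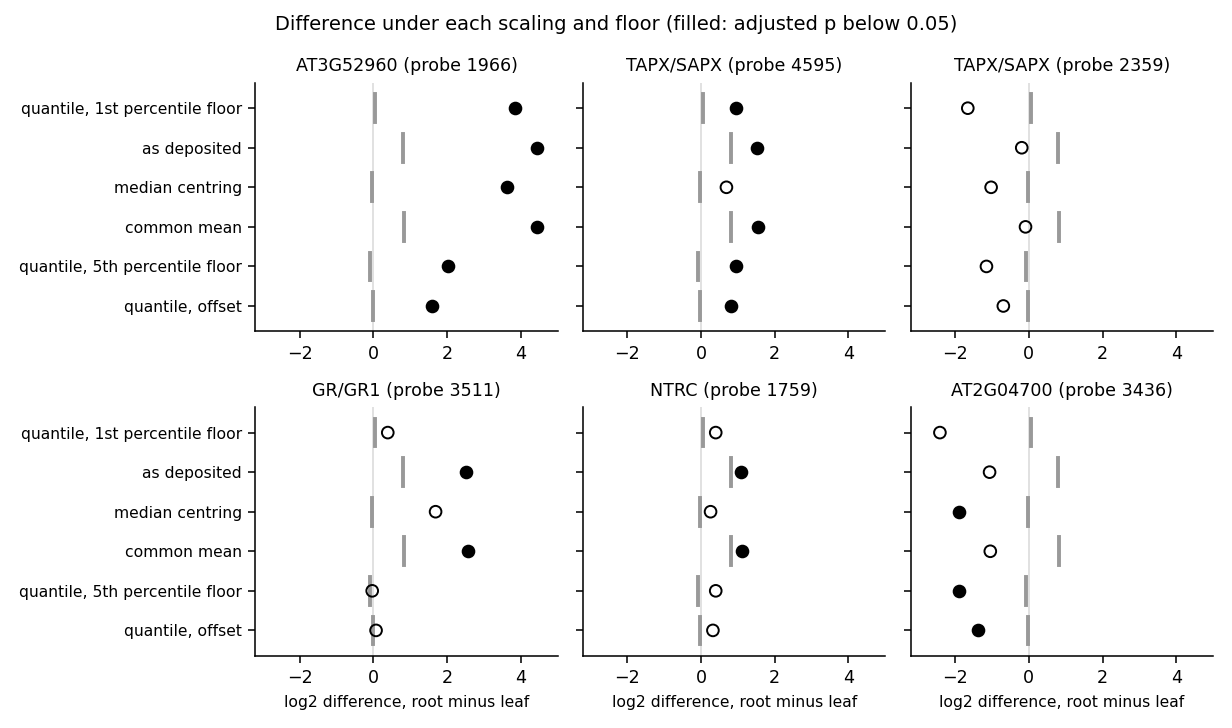
Log2 difference, root minus leaf, of each probe under 4 ways of scaling the arrays and 2 other treatments of low values, with the median of all probes under the same treatment as a grey tick and filled points for a limma adjusted p below 0.05. The grey tick moves from 0.05 to 0.80 when the deposited intensities are used, and NTRC and GR/GR1 are filled only where it is high.

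The calls depended in part on the scaling of the arrays, since the median of all probes moved from 0.05 after quantile normalisation to 0.80 on the deposited intensities. With the deposited intensities 4 of the 6 probes were called higher in root, NTRC and GR/GR1 being added, but 34.5% of all probes were then called in that direction. Relative to the median of all probes, NTRC stood at 0.34 after normalisation and 0.29 as deposited. TAPX/SAPX probe 4595 stood at 0.89 and 0.72, and AT3G52960 at 3.79 and 3.65, in the same comparison. AT2G04700 stood at -2.47 and -1.87 and TAPX/SAPX probe 2359 at -1.71 and -0.997. GR/GR1, with 0.34 and 1.72, changed most. Before normalisation the tissues did not overlap at 3 of the 6 probes, all higher in root, against 35.7% of all probes apart in that direction and 15.7% in the other. After it they did not overlap at 2 probes higher in root, against 22.2% of all probes, and at 1 higher in leaf, AT2G04700, against 22%.

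**Figure D4:**
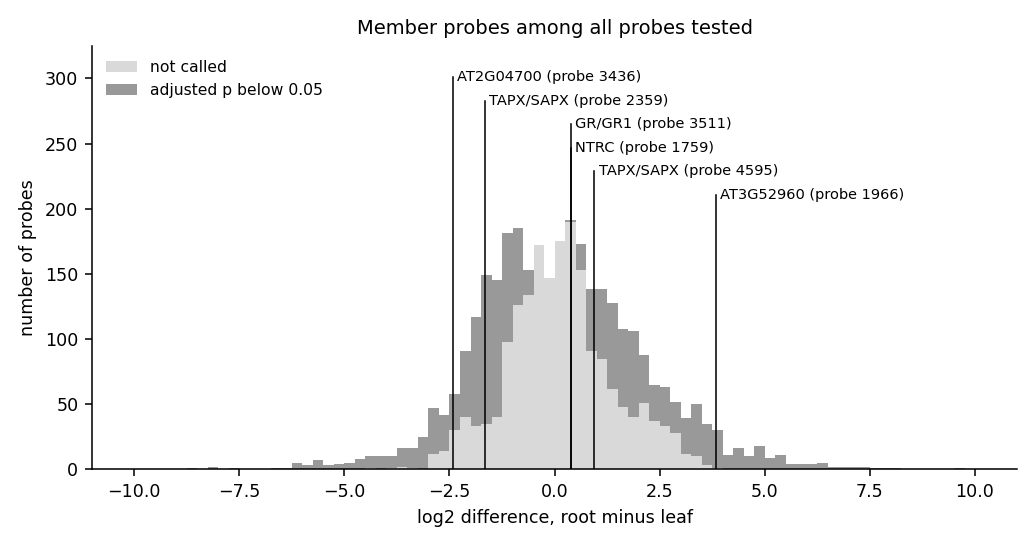
Number of probes by log2 difference, root minus leaf, for the 3298 probes tested, in light grey where not called and dark grey where the limma adjusted p was below 0.05. Vertical lines mark the 6 member probes, which run from -2.42 (AT2G04700) to 3.84 (AT3G52960).

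Other genes of the same pathways were sparse on the array. Of 96 genes listed for ferredoxin and thioredoxin reduction, peroxide removal, antioxidant synthesis and thioredoxin-regulated enzymes, 12 had a probe, on 11 probes, of which 10 could be tested. Among these 10, 6 fell in root and 0 rose (limma; 0 also rose at an unadjusted p below 0.05 and with separate variances), with a median of -1.59. Over all probes tested, 22.1% were called lower in root and 20.1% higher, with a median of 0.05, and the lists were not tested against them. The genes of superoxide dismutases, catalases and glutathione peroxidases, 18 in all, had none.

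Both probes shared by the glutaredoxin genes GrxC5 and AT2G20270, whose products reduce disulfides with glutathione, were lower in root. Probe 2602 read 1.06, 0.940, 0.768 and 0.808 in leaf replicates 1 to 4 and 0.470, 0.451, 0.295 and 0.313 in root. The tissues were well apart, with a log2 difference of -1.66 ± 0.18 (limma, adjusted p = 2.61e-04). Probe 891 differed by -3.74 ± 0.74 (limma, adjusted p = 0.00488), with 1 root array at 0. Here, unlike for TAPX and SAPX, the 2 probes of a shared pair went the same way.

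GLDH, the mitochondrial enzyme of the last step of ascorbate synthesis, had a log2 difference of -1.52 ± 0.41 and passed (limma, adjusted p = 0.0203), but its deposited intensities overlapped, at 0.137 to 0.348 in leaf and 0.0964 to 0.225 in root, and on them the difference of -0.62 did not pass (limma, adjusted p = 0.245). It also lost its call without leaf replicate 1 or 2 or root replicate 4 (limma, adjusted p = 0.0503, 0.0503 and 0.0527). SRX, the sulfiredoxin that repairs over-oxidised peroxiredoxins, read 0.0849, 0, 0.0623 and 0.121 in leaf and 0.124, 0, 0 and 0.0170 in root. The tissues overlapped and the difference of -2.48 ± 1.32 did not pass (limma, adjusted p = 0.168), although it did without leaf replicate 2 (-3.67; limma, adjusted p = 0.0285). A probe shared by the thioredoxin genes TY1, THX and ty2, whose products pass electrons to peroxiredoxins, stood at 0.40 ± 0.81 and did not pass (limma, adjusted p = 0.711).

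Of the plastid enzymes that thioredoxin regulates, 3 of 5 tested probes fell in root, a direction taken by 22.1% of all probes, and 2 did not pass. AT5G58330, the NADP-dependent malate dehydrogenase that exports reducing power from the chloroplast, read 0.409, 0.298, 0.591 and 0.447 in leaf replicates 1 to 4 and 0.107, 0.213, 0.240 and 0.260 in root. Every leaf array was above every root array (log2 difference -1.85 ± 0.44; limma, adjusted p = 0.0120). With the arrays scaled to a common mean the difference was -1.10 and did not pass (limma, adjusted p = 0.0559). The others that fell were PRK, phosphoribulokinase of the Calvin cycle, at -5.15 ± 0.37 and the probe of the ATP synthase gamma subunit genes ATPC1 and ATPC2 at -1.11 ± 0.16. The probes shared by RCA and AT1G73110, 665 at 0.16 ± 0.29 and 1872 at 0.11 ± 0.89, did not pass, which does not show equal levels. As deposited, probe 665 read 0.0851 to 0.277 in leaf and 0.294 to 0.415 in root, without overlap, as did 35.7% of all probes in that direction. Its normalised values overlapped, with differences of 0.66 in replicates 1 and 2 and -0.35 in replicates 3 and 4. Probe 1872 was at 0 on 3 leaf arrays, and its differences in these pairs were 1.83 and -1.60. SBPASE was listed at 0 on all arrays. AT2G04700, whose product reduces the thioredoxins that act on these enzymes, did not pass the test, at -2.42, and neither did NTRC, at 0.40. Any relation of these members to the enzymes was not tested.

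Genes with the pattern most like that of each member over the 8 arrays were sought among 523 single-gene probes outside the lists, by Pearson correlation of the normalised log2 values, as a description. TAPX/SAPX probe 4595 was closest to AT5G63490 (r = 0.985) and AT2G38550 (r = 0.982), of which the first was called higher in root and the second was not called, and 17 probes exceeded 0.9. AT2G04700 was closest to AT2G38500 (0.928) and AT5G33390 (0.923), both called higher in leaf. NTRC was closest to DI21 (0.902) and AT5G39410 (0.901). GR/GR1 was closest to AT3G56130 (0.953) and PSB27 (0.9004), and TAPX/SAPX probe 2359 to AT1G71910 (0.925) and AT4G24910 (0.876). None of the 6 probes closest to NTRC, GR/GR1 or TAPX/SAPX probe 2359 was called. All these values share the same 8 arrays and their normalisation, and AT3G52960, above 0 on fewer than 6 arrays, was not compared.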

How the data were processed

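The deposited values were spot intensities for 3439 probes on 8 arrays, 4 of leaf and 4 of root RNA, grouped by the sample titles. How the authors made the intensity values is not given in the sources used here. Gene names came from the platform annotation, joined by probe number, and locus names from the RefSeq table for TAIR10.1, in which all 143 listed loci were found. Coordinates are not printed, because the sources state no build.

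The intensities were normalised by quantiles (ties averaged), values under the 1st percentile of the positive deposited intensities were raised to it, and log2 was taken. A probe that never rose above this floor was not tested (141 of them), so 3298 entered the fit. The tissues were compared with limma 3.58.1 (lmFit and eBayes) under R 4.3.3, two-sided, with Benjamini-Hochberg adjustment over the 3298 probes and a threshold of 0.05. Errors are the moderated SE for differences and the SD for intensities. A percentile is a probe's rank among the probes of its array. Figures were drawn with matplotlib 3.10.9. The fit was tested on simulated data. The number of arrays limits the precision.

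The members, gene lists and alternatives were chosen with earlier results of these data known. Named genes are all member probes, all listed pathway genes with a probe, and for each member above 0 on at least 6 arrays the 2 single-gene probes of most like pattern. Alternatives changed the scaling, the floor, the filter, the variance model or a block, or left out 1 array.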

Additional observations from a re-analysis of the deposited data

Results flagged for a closer look

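For each member and pathway probe the 4 arrays of each tissue were taken as a set, 32 sets in all, and 4 of these held an array whose distance to the nearest other took up most of the range of its set. Chance flags about 1 in 20 sets of continuous values, a rate that does not apply to sets with tied values of 0. Such ties were present in the flagged sets of AT3G52960, of AT1G73110/RCA probe 1872 and of SRX. AT3G52960 read 0.0477 on leaf replicate 4 and 0 on the other leaf arrays, and without that array its log2 difference was 4.85. GrxC5/AT2G20270 probe 891 read 0.140 on leaf replicate 1 and 0.320 to 0.356 on the others. The dimmer probe of AT1G73110 and RCA, 1872, read 0.0200 on leaf replicate 3 and 0 on the others. SRX read 0.124 on root replicate 1 and at most 0.0170 on the other root arrays.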

How the results depend on the processing

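The number of member probes higher in root, 2 as reported, was 4 on the deposited intensities and with a common mean. It was 1 with median centring, with values of 0 missing, without the dimmest 25% of probes and with separate variances, and 1 to 2 with 1 array left out. The number higher in leaf, 0 as reported, was 1 with median centring, the 5th percentile floor, the offset or the block for replicates 1 and 2 against 3 and 4, 2 with values of 0 missing, and 0 to 1 with 1 array left out. AT3G52960 could not be fitted with values of 0 missing. The dimmest 25% included AT3G52960, GR/GR1 and TAPX/SAPX probe 2359.

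Over all probes, the number higher in root rose from 664 to 1137 on the deposited intensities and to 1155 with a common mean, and the number higher in leaf changed from 729 to 495 and 501. The 6 other pathway probes that fell numbered 4 to 6 under all alternatives, with 0 that rose.

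The signs that turned belonged to probes that did not pass either way. GR/GR1 went to -0.031 with the 5th percentile floor and -0.55 with values of 0 missing, and ranged from -0.53 to 0.95 with 1 array left out. RCA and AT1G73110 probe 665 ranged from -0.0747 to 0.31, and probe 1872 from -0.38 to 1.01, with 1 array left out, and probe 1872 went to -0.0635 with median centring and -0.19 with the 5th percentile floor. TY1/THX/ty2 ranged from -0.44 to 0.71. The causes were not tested.

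Same-numbered leaf and root arrays deviated together by r = 0.0901 to 0.126, each more than with any other number (at most 0.0493), a hint from the data that falls short of showing pairs. With the replicate block the counts were 2 and 0 for the members and 596 and 648 for all probes, and no member changed its call. Values near the floor limit AT3G52960, GR/GR1, TAPX/SAPX probe 2359 and, through root replicate 3, AT2G04700.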
